A study of Mus musculus with 12 samples.

Results

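The type I interferon response genes are 35 genes of the mouse that carry or answer the signal of the type I interferon receptor. They were taken by symbol from a written list that sets no threshold on a measured value but was drawn up with earlier results of these data known, and all 35 had a row in both tables of the series, among 30165 genes for oligodendrocyte precursor cells (OPCs) and 17918 genes for neurons. All 35 also passed the filter on low counts, among 17364 genes tested in OPCs and 14352 in neurons. By role they comprise 7 genes of the receptor, its signalling and its feedback (Ifnar1, Ifnar2, Stat2, Irf9, Irf1, Irf7 and Usp18), 3 sensors of foreign nucleic acid, 4 enzymes that attach ubiquitin or ADP-ribose, 4 genes of the IFIT family, 3 of the OAS family and 14 other antiviral effectors.

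Type I interferons are secreted by cells that sense viral or misplaced nucleic acid and bind a receptor made of the chains IFNAR1 and IFNAR2. The receptor's kinases act on STAT2, which joins IRF9 in a complex that binds interferon-stimulated response elements in the promoters of effector genes, and gamma-activated sites such as the one in Irf1 are a further element that answers interferon. Most brain cells, microglia and endothelial cells among them, carry the receptor, and USP18 closes the loop by displacing a kinase from the receptor.

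RNA of OPCs and neurons isolated from the mouse cortex was sequenced in 12 libraries, 3 per cell type and genotype, each from the pooled cells of 2 mice. In the dKO mice the genes of the L-type calcium channels Cav1.2 (Cacna1c) and Cav1.3 (Cacna1d) are floxed and deleted conditionally through NG2-CreERT2. This is a tamoxifen-inducible Cre under the NG2 promoter, with tamoxifen given early after birth. The ctl mice are labelled WT, and their Cre and floxed alleles are not given in the sources used here, nor is the age at sorting. OPCs were pulled out on magnetic beads that bind CD140, NG2 or O4, and neurons were what remained after cells with ACSA-2, CD31, CD11b or O4 had been removed. The NG2 promoter directs the deletion to OPCs and is also active in pericytes. The comparison of dKO with ctl asks, for each cell type, how the response genes stood after deletion of the channel genes was directed to OPCs.

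Total counts ranged between 14935963 and 19812274 for the OPC libraries, and between 15052892 and 16344601 for the neuron libraries. The targeted genes in OPCs had mean normalised counts of 405 ± 37.9 in ctl and 303 ± 41.0 in dKO libraries for Cacna1c, and of 230.3 ± 34.8 and 161 ± 70.4 for Cacna1d (SD, n = 3). The values for Cacna1c did not overlap between the groups and those for Cacna1d did, and counts over the whole gene include exons that were not deleted. In the neuron libraries both genes overlapped between the groups, with log2 fold changes of 0.44 ± 0.43 and 0.80 ± 0.58 (SE). The libraries held other cells beside those on the label, so OPCs and neurons below name the libraries and not pure cells. In the OPC libraries the 9 oligodendrocyte markers summed to between 47850.3 and 83987 counts scaled to library size (CPM), against 1400.3 to 2619 CPM for the 9 OPC markers. In the neuron libraries the 13 endothelial markers summed to between 9983 and 22849.8 CPM and the 5 erythroid markers to between 11096 and 72402 CPM, against 571 to 1347 CPM for the 10 neuron markers. Y-linked genes were near 0 in neuron libraries ctl 2, ctl 3, dKO 2 and dKO 3 and present in ctl 1 and dKO 1. OPC library dKO 2 stood apart from the other OPC libraries in Xist. The 5 sex-linked genes summed to 774 CPM in it and to between 240 and 284 CPM in the others. The part of sex in the results was not tested. In bulk RNA, fewer cells of a type and less RNA per cell cannot be told apart.

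The sequences that interferon signalling reads are shown for 5 genes, the IFIT members Ifit3, Ifit3b and Ifit1 and the ubiquitin-like Isg15 for the response element, and Irf1 for the gamma-activated site. RefSeq promoter windows (GRCm38.p6, 250 bases before to 50 after an annotated start) were at hand for 27 of the 35 genes. The core of the interferon-stimulated response element was searched as GAAA, 2 bases of any kind and GAAA on either strand, and the gamma-activated site as TTC, 3 bases of any kind and GAA, which reads the same on both strands. The response element core lay in a window of 10 of the 27 genes, or 37.0%, against 3.99% of all 27025 genes with a window, and the gamma-activated core in 9 genes, or 33.3%, against 9.55%. These matches describe letters in a window and not binding. The 250 bases before the start are printed 5′ to 3′ on the strand of the gene, with the core in capitals. The regions are chr19:34583279-34583528 (plus strand) for Ifit3, chr19:34607707-34607956 (plus) for Ifit3b, chr19:34640639-34640888 (plus) for Ifit1, chr4:156200819-156201068 (minus) for Isg15 and chr11:53769764-53770013 (plus) for Irf1.
Ifit3: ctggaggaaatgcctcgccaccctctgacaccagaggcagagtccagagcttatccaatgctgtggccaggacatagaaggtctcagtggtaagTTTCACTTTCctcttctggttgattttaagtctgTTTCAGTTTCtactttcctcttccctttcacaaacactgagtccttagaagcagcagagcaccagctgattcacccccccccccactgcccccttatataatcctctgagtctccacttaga
Ifit3b: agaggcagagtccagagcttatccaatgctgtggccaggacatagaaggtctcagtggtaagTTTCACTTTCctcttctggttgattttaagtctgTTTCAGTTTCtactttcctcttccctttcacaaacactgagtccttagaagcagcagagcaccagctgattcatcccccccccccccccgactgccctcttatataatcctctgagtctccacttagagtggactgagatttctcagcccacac
Ifit1: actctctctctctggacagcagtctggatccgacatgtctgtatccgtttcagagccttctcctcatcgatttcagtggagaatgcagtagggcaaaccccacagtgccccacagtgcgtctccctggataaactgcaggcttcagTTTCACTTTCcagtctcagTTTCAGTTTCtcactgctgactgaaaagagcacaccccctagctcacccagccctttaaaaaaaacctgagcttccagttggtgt
Isg15: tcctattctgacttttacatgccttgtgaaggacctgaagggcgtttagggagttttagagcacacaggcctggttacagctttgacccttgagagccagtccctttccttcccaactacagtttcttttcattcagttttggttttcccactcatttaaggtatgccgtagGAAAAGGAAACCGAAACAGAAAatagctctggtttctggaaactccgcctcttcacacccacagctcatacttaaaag
Irf1: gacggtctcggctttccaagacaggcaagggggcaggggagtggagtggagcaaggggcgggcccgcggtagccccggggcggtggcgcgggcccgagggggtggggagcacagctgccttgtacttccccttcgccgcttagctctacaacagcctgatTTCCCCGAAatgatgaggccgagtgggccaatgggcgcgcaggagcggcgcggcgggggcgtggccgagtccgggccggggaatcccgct

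In Ifit3 the response element cores began 156 and 122 bases upstream of the annotated start, in Ifit3b 188 and 154 bases upstream and in Ifit1 104 and 85 bases upstream, all reading GAAA on the strand opposite the gene. Isg15 held 3 overlapping cores on its own strand that began 78, 72 and 66 bases upstream. The gamma-activated core of Irf1 began 90 bases upstream. The Ifit3 and Ifit3b windows had 75.9% identical positions over their alignment, against 50.5% for Ifit1 and Ifit3. The transcripts of Ifit3 and Ifit3b were 81.2% identical over their alignment, and 296 windows of 150 bases, of 1596 in Ifit3 and 1851 in Ifit3b, occurred letter for letter in both genes, so reads from there could be split between these copies by the counting. The same holds for 32.4% of the windows of Oas1a, which occurred in Oas1g. Exons on the other strand overlap Irf1, Irf7, Usp18, Dhx58, Eif2ak2 and Ifi35, and Dtx3l and Parp9 overlap each other. Exons on the same strand overlap Ifnar2, Irf9, Parp14, Rtp4 and Sp100. The library kit named in the labels does not mark strand, so reads from such overlaps cannot be assigned.

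In ctl neuron libraries the response genes stood high among all genes, with 30 of the 35 above the median level per length of the 14352 genes tested. Per length, in TPM (counts divided by transcript length and scaled to the library), the highest were Ifi27, a small membrane protein induced by interferon, at 347 ± 61.8 TPM (SD, n = 3), and Rtp4, a receptor transport protein, at 292 ± 49.8 TPM. The receptor chain Ifnar2 followed at 268 ± 29.7 TPM, within the spread of Rtp4, and Oas2 was lowest at 4.53 ± 1.74 TPM. In ctl OPC libraries 13 of the 35 were above the median of the genes tested. Their levels in FPKM (fragments scaled to transcript length and library size) ran from 77.4 ± 11.6 FPKM for Ifi27 and 24.4 ± 8.47 FPKM for Lgals3bp, a secreted glycoprotein, down to 0.220 ± 0.0723 FPKM for Zbp1, a sensor of left-handed nucleic acid. The response genes together took from 0.232% to 0.427% of all counts in neuron libraries and from 0.0561% to 0.0954% in OPC libraries, and the tables were counted in different ways.

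In the neuron libraries most response genes were lower in dKO than in ctl. The log2 fold change was below 0 for 33 of the 35 genes, against 48.9% of all genes tested, with a median of -0.57, against 0.01 over all genes. With edgeR's quasi-likelihood test 22 of the 35 genes were lower at an unadjusted p under 0.05, or 18 of the 28 effectors, sensors and enzymes and 4 of the 7 regulators, against 4.04% of all genes, and 0 were higher, against 4.96%. An adjusted p under 0.05 over all genes was reached by 0 of the 35 genes and by 0 of 14352 genes with edgeR, where 1292 genes had an unadjusted p under 0.05. With DESeq2 6 of the 35 genes passed at an adjusted p under 0.05, all lower (Phf11d, Ifi35, Ifit3, Ifi44, Rtp4 and Irf1), against 0.411% of all genes lower and 0.202% higher. The DESeq2 count was 0 without ctl 1, ctl 3 or dKO 3, and 5 to 8 without each of the others, against 0.0210% to 0.188% and 0.399% to 0.669% of all genes lower in those fits. The dKO and ctl values did not overlap for 18 genes, all lower in dKO, against 8.0% of all genes tested, and none was higher, against 7.34%.

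**Figure D1:**
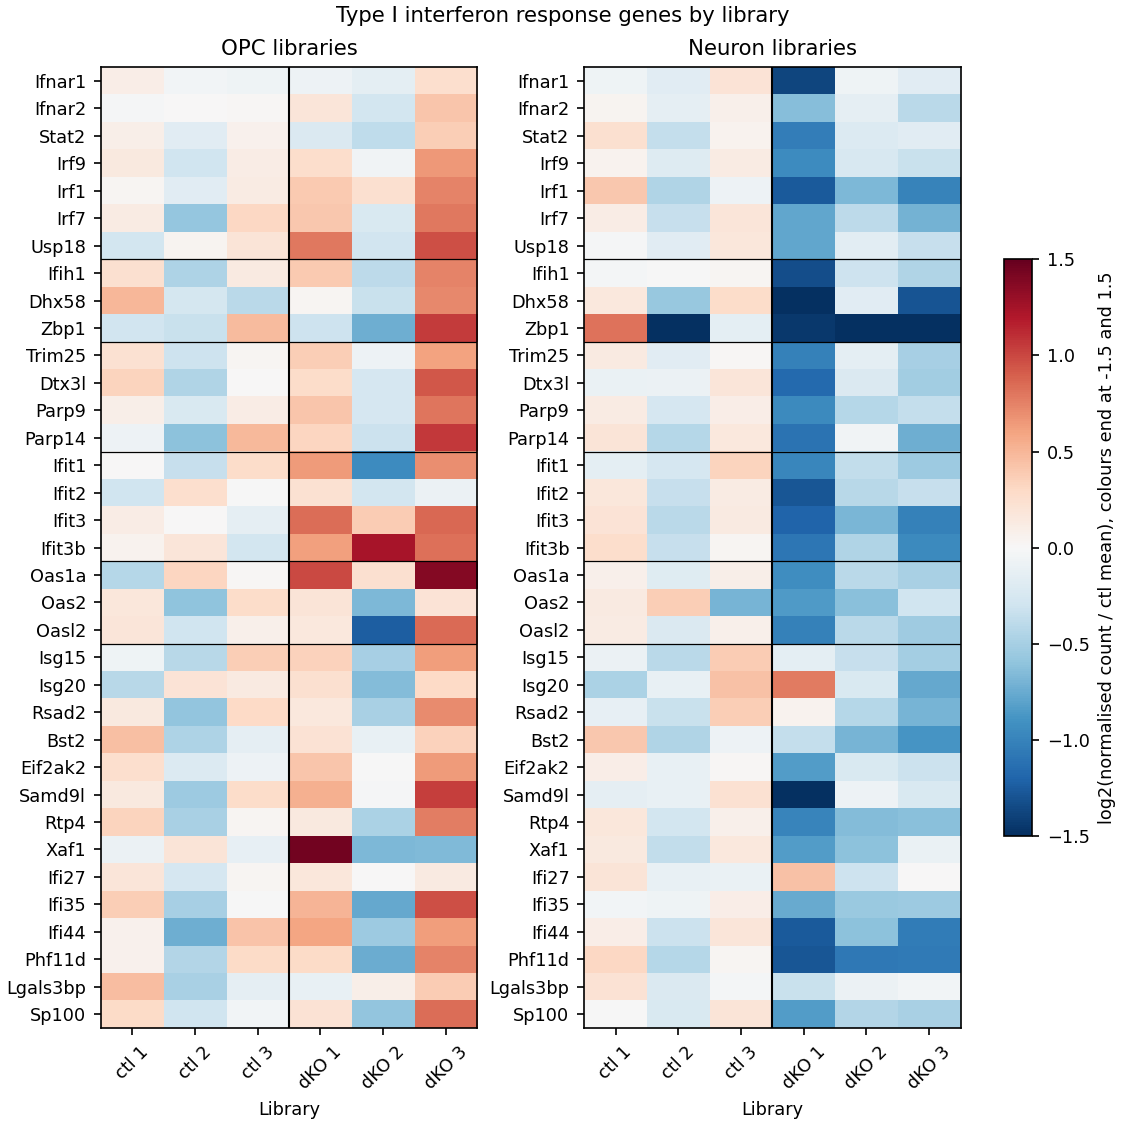
Colours give the log2 ratio of the normalised count of each of the 35 response genes (vertical axis, in order of role, lines between roles) to the ctl mean of that gene, for each library (horizontal axis) of OPCs and neurons. Neuron library dKO 1 is lowest for 29 of the 35 genes, and OPC library dKO 3 is highest for 28.

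Both receptor chains had lower means in dKO neuron libraries. Normalised counts (counts scaled by edgeR's TMM factors to a common depth) of Ifnar1, the signalling chain, were 7794, 7247 and 9344 in ctl and 3126, 7799 and 7204 in dKO libraries, in the order of replicates 1 to 3. Library dKO 1 stood far below the others and dKO 2 lay within the ctl range, and the log2 fold change was -0.43 ± 0.31 (SE, 3 libraries per group). It was -0.12 without dKO 1 and -0.65 without dKO 2. Ifnar2, the chain with the higher affinity for interferon, measured 3581, 3172 and 3653 in ctl and 2221, 3159 and 2623 in dKO libraries, and all 3 dKO libraries lay below the lowest ctl library at -0.38 ± 0.16 on the log2 scale. Its value without dKO 1 was -0.26, and its unadjusted p was under 0.05 in 1 of the 6 fits that left out a library.

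Of the factors that carry the signal to DNA, Stat2 counted 1859, 1237 and 1638 in ctl and 767, 1369 and 1408 in dKO libraries. Its groups overlapped, with a log2 fold change of -0.42 ± 0.25 and an unadjusted p of 0.13, and it stood at -0.19 without dKO 1. Irf9, the DNA-binding partner of STAT2, counted 2779.8, 2341 and 2926 in ctl and 1398, 2270.4 and 2122 in dKO libraries. These groups did not overlap, and the log2 fold change was -0.47 ± 0.20. Without dKO 1 it was -0.29, and the unadjusted p was under 0.05 in 2 of the 6 fits that left out a library.

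Of the induced regulators, Irf1 and Irf7 had the lowest log2 fold changes among the 7 genes of this role. Irf1, a transcription factor that responds to both interferon types, counted 3049, 1683 and 2185 in ctl and 965, 1445 and 1150.1 in dKO libraries, so that the highest dKO library lay below the lowest ctl library. Its dKO level was 51.6% of ctl, a log2 fold change of -0.96 ± 0.24 with an unadjusted p of 0.0035 and an adjusted p of 0.521 with edgeR. Irf7, the factor that amplifies interferon production, counted 1483, 1075 and 1549.6 in ctl and 798, 1045 and 840.4 in dKO libraries, again without overlap, at -0.61 ± 0.18. Usp18, the negative feedback protease, counted 1319, 1189 and 1500.3 in ctl and 781, 1193 and 1049 in dKO libraries. Here dKO 2 lay just inside the ctl range and the log2 fold change was -0.40 ± 0.18, with an unadjusted p of 0.055, and -0.25 without dKO 1. Over the 7 regulators the median log2 fold change was -0.43, and over the other 28 genes it was -0.58. No test of that difference was run.

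**Figure D2:**
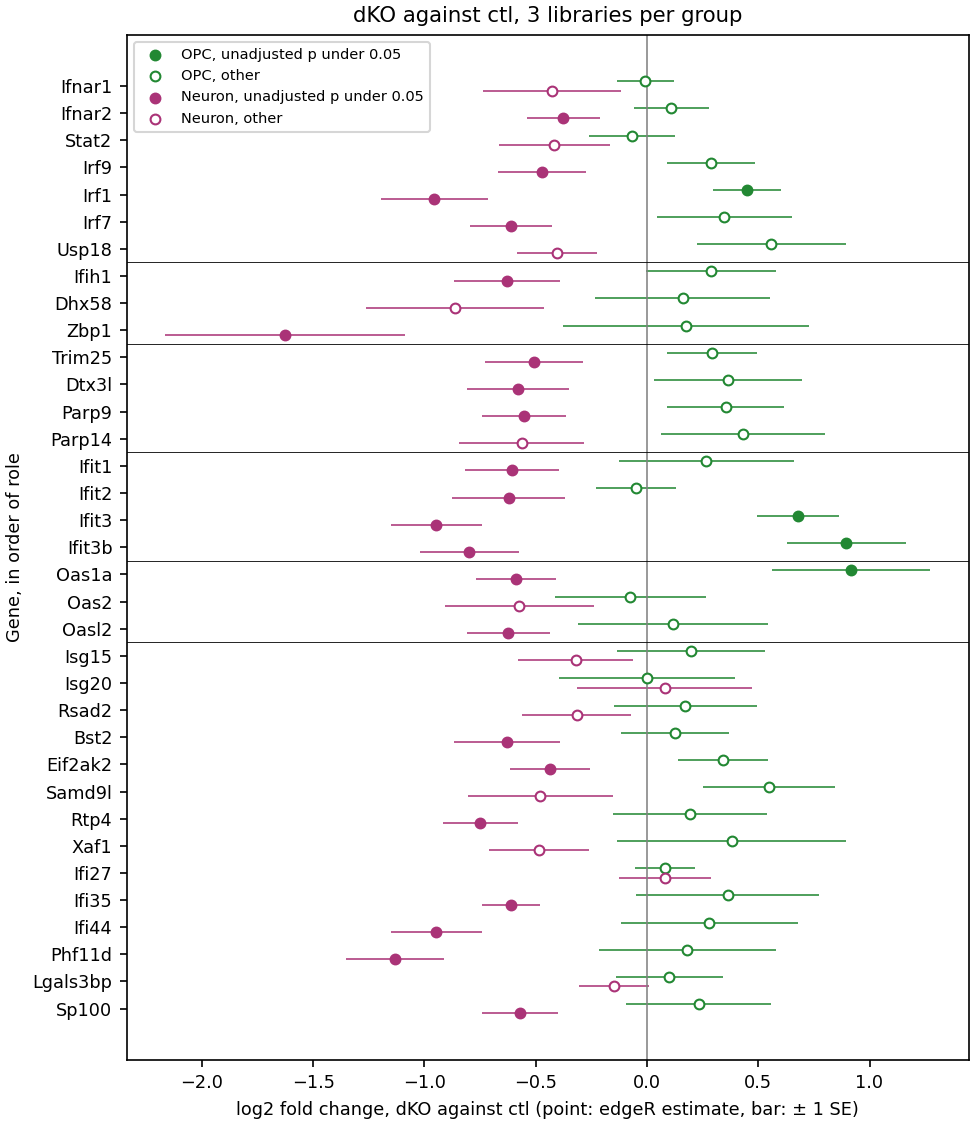
Points are edgeR log2 fold changes of dKO against ctl (horizontal axis) with bars of 1 SE for the 35 response genes (vertical axis, in order of role) in OPCs (green) and neurons (purple), and filled points have an unadjusted p under 0.05. In neurons 22 points are filled, all to the left of 0, and in OPCs 4 are filled, all to the right.

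All 3 nucleic acid sensors had lower means in dKO neuron libraries. Ifih1, the sensor of long double-stranded RNA, counted 2271, 2317 and 2366 in ctl and 924, 1869.8 and 1700.4 in dKO libraries, which did not overlap and gave -0.63 ± 0.24 on the log2 scale. Without dKO 1 this was -0.38, and its unadjusted p was under 0.05 in 3 of the 6 fits that left out a library. Zbp1 counted 328, 63.4 and 169 in ctl and 68.9, 63.3 and 48.5 in dKO libraries, with ctl 1 far above the rest and ctl 2 inside the dKO range. Its log2 fold change of -1.63 ± 0.54 was the lowest of the 35 genes. Without ctl 1 it was -0.94 and no longer had an unadjusted p under 0.05. Dhx58, a helicase that tunes the RNA sensors, had overlapping groups and a log2 fold change of -0.86 ± 0.40, with an unadjusted p of 0.061, that ran from -1.40 without dKO 2 to -0.62 without dKO 1.

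Among the enzymes, the ubiquitin ligase gene Trim25, which activates RNA sensing, counted 862, 699 and 790.3 in ctl and 387, 709.6 and 555 in dKO libraries, with dKO 2 inside the ctl range (-0.51 ± 0.22). Dtx3l and Parp9, partners in a ubiquitin and ADP-ribose complex, were lower without overlap. Dtx3l counted 944, 949.7 and 1145 in ctl and 453, 871 and 706 in dKO libraries and Parp9 1247, 963 and 1228 in ctl and 594, 854 and 894 in dKO libraries, with log2 fold changes of -0.58 ± 0.23 and -0.55 ± 0.19. Without dKO 1 Trim25 stood at -0.31, Dtx3l at -0.36 and Parp9 at -0.39, and with 1 library left out their unadjusted p was under 0.05 in 1, 2 and 4 of 6 fits. Parp14, another ADP-ribose transferase, stood at -0.56 ± 0.28, with an unadjusted p of 0.079, and ran from -0.91 without dKO 2 to -0.36 without dKO 1.

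The IFIT family, whose proteins bind viral RNA and stop its translation, was lower in dKO neuron libraries in all 4 members. Each had an unadjusted p under 0.05, against 4.04% of all genes. Ifit3 counted 3517, 2309 and 3363 in ctl and 1335, 1907 and 1515 in dKO libraries, with no overlap and a dKO level of 51.9% of ctl (log2 fold change -0.95 ± 0.21). Its copy Ifit3b counted 944, 619 and 803 in ctl and 373, 575 and 408 in dKO libraries, also without overlap, at -0.80 ± 0.22. Ifit1, which recognises RNA caps that lack methylation, counted 2786, 2599 and 3885 in ctl and 1565, 2395 and 2122 in dKO libraries. All 3 dKO libraries lay below ctl, at -0.61 ± 0.21 on the log2 scale. Ifit2, a partner of the other family members, counted 1847, 1294 and 1799 in ctl and 676, 1238 and 1296 in dKO libraries. In this gene dKO 3 just reached the lowest ctl library, and the log2 fold change was -0.62 ± 0.25. Ifit2 stood at -0.38 without dKO 1 and had an unadjusted p under 0.05 in 3 of the 6 fits that left out a library, and Ifit1 stood at -0.41 without ctl 3 and lost it in that fit.

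In the OAS family, whose active members make the messenger that switches on RNase L, Oas1a counted 718, 598 and 726 in ctl and 357, 515 and 485 in dKO libraries, which did not overlap (-0.59 ± 0.18). Oasl2, a family member with ubiquitin-like domains, counted 2433, 1919 and 2349.6 in ctl and 1104, 1691 and 1548 in dKO libraries, also without overlap (-0.62 ± 0.19). Oas2 was low in all libraries and its groups overlapped (-0.57 ± 0.33, unadjusted p 0.12), and it stood at -0.35 without ctl 2.

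Of the 14 other effectors 7 were lower in dKO neuron libraries at an unadjusted p under 0.05, against 4.04% of all genes. Phf11d, a nuclear PHD finger protein, had the smallest p of the 35 genes and counted 547, 329.9 and 449.8 in ctl and 181, 211 and 212 in dKO libraries. The highest dKO value was below the lowest ctl value. The dKO level fitted by edgeR was 45.6% of ctl (-1.13 ± 0.22 on the log2 scale, unadjusted p 0.00074, adjusted p 0.521 with edgeR). Ifi35, a leucine zipper protein induced by interferon, counted 1770.2, 1729.5 and 1945 in ctl and 1075, 1233 and 1248 in dKO libraries, without overlap, at a log2 fold change of -0.61 ± 0.13.

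Ifi44, an interferon-induced cytoplasmic protein, counted 1639, 1221 and 1728 in ctl and 641, 996 and 739 in dKO libraries, with a dKO level of 51.9% of ctl (-0.95 ± 0.21). Rtp4 counted 3009.6, 2205 and 2808 in ctl and 1343, 1699.7 and 1725 in dKO libraries (-0.75 ± 0.17), and Sp100, a component of nuclear bodies, counted 4482, 3829 and 5140.4 in ctl and 2507, 3319 and 3208 in dKO libraries (-0.57 ± 0.17). In these 3 genes the dKO values all lay below ctl. Eif2ak2, the kinase PKR that halts translation on sensing double-stranded RNA, counted 863, 747 and 816 in ctl and 454, 692 and 647 in dKO libraries, also without overlap (-0.43 ± 0.18). Bst2, the tetherin that holds budding virus to the cell, counted 1352, 747 and 971 in ctl and 797, 630.2 and 553 in dKO libraries, with dKO 1 inside the ctl range (-0.63 ± 0.24). With 1 library left out, Eif2ak2 had an unadjusted p under 0.05 in 1 of 6 fits and stood at -0.27 without dKO 1, and Bst2 had it in 3 of 6 and stood at -0.37 without ctl 1.

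The remaining 7 effectors had an unadjusted p over 0.05 in neurons, and all had overlapping groups. Ifi27 counted 2871, 2319 and 2353 in ctl and 3402, 2028 and 2520.2 in dKO libraries and was highest in dKO 1. Lgals3bp counted 2475, 1837 and 2085 in ctl and 1694, 1998 and 2066 in dKO libraries, and Samd9l, a growth-restraining antiviral protein, 3038, 3087 and 3915 in ctl and 1169, 3177 and 2855 in dKO libraries. For Samd9l the library dKO 1 was far below the other 5. Their log2 fold changes were 0.08 ± 0.21, -0.15 ± 0.16 and -0.48 ± 0.33. Xaf1, a promoter of cell death, stood at -0.48 ± 0.22, the radical-forming enzyme Rsad2 at -0.32 ± 0.24, Isg15 at -0.32 ± 0.26 and the exonuclease Isg20 at 0.08 ± 0.39. Samd9l was -0.15 without dKO 1, Xaf1 -0.34 without dKO 1, and Rsad2 and Isg15 -0.09 and -0.08 without ctl 3, while Ifi27, Lgals3bp and Isg20 changed sign in at least 1 fit that left out libraries. Ifi27 and Isg20 were the 2 genes with a mean change above 0.

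The neuron differences were largest in library dKO 1 and were also seen without it. This library was lowest for 29 of the 35 genes, and the median gene in it stood at -0.96 against the ctl mean on the log2 scale, compared with -0.37 and -0.49 in dKO 2 and dKO 3. Without dKO 1 the median log2 fold change was -0.45 and 17 genes were lower at an unadjusted p under 0.05, against 4.35% of all genes. Without ctl 1 there were 13 such genes, against 2.14% of all genes, and without ctl 3 there were 14, against 3.00%. Without ctl 1 and dKO 1, which left 4 libraries near 0 for Y-linked genes, the median was -0.41 and 17 genes were lower, against 3.56% of all genes. Irf1, Irf7, Ifit3, Ifit3b, Oas1a, Oasl2, Rtp4, Ifi35, Ifi44, Phf11d and Sp100, 11 genes in all, had an unadjusted p under 0.05 whichever library was left out, against 1.18% of all genes. The other 11 of the 22 lost it without at least 1 library.

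Markers of other cells also differed in their means between the neuron groups. The 13 endothelial markers summed to 21051, 20554 and 22849.8 CPM in ctl 1 to 3 and to 9983, 18321 and 18457 CPM in dKO 1 to 3, so that the library lowest in response genes was also lowest in endothelial RNA. All 13 had lower means in dKO, 3 at an unadjusted p under 0.05 and 9 without overlap, with a median log2 fold change of -0.41. Without dKO 1 the median was -0.21 with 2 markers at an unadjusted p under 0.05, and there were 0 without ctl 1 or ctl 3, 1 without ctl 2 or dKO 3 and 4 without dKO 2. The summed CPM of the response genes divided by that of the endothelial markers was 0.201, 0.168 and 0.193 in ctl and 0.224, 0.176 and 0.161 in dKO libraries, and these ratios overlapped. Microglial markers summed to 2053, 467 and 979 CPM in ctl and 448, 1162 and 664 CPM in dKO, with a median of -0.71 and 0 of 15 at an unadjusted p under 0.05. The median was 0.07 without ctl 1, -0.38 without dKO 1, -1.12 with 8 of 15 lower without ctl 2, and -1.16 with 2 lower without dKO 2. Of the other lists, 9 of 9 oligodendrocyte markers had lower means with 0 at an unadjusted p under 0.05 (median -0.98), as had 7 of 8 astrocyte markers with 3 (median -0.54) and 7 of 9 blood leukocyte markers with 2 (median -0.66). With 1 library left out the oligodendrocyte median ran from -1.45 without ctl 3, where 9 of 9 had an unadjusted p under 0.05, to -0.07 without ctl 1, and the astrocyte median from -0.78 without ctl 2, with 4 lower, to 0.07 without ctl 1, with 1 higher. Without ctl 1 and dKO 1 together the medians were -0.19 for endothelial, 0.39 for microglial, 0.41 for astrocyte (4 of 8 higher at an unadjusted p under 0.05) and 0.14 for oligodendrocyte markers. Neuron markers had higher means in 9 of 10, with 1 at an unadjusted p under 0.05 and a median of 0.53, and their sum was highest in dKO 1 at 1347 CPM. Erythroid markers had higher means in 5 of 5 with 0 at an unadjusted p under 0.05 (median 0.38), and their sum was also highest in dKO 1, at 72402 CPM against 11096 to 49115 CPM in the others. OPC markers had lower means in 7 of 9, with 1 at an unadjusted p under 0.05 (median -0.86), fibroblast markers in 5 of 5 with 1 (median -0.55) and mural markers in 3 of 7 with 0 (median 0.01). No endothelial or microglial marker was at 0 over the libraries, and the part of these cell types in the result was not tested.

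**Figure D3:**
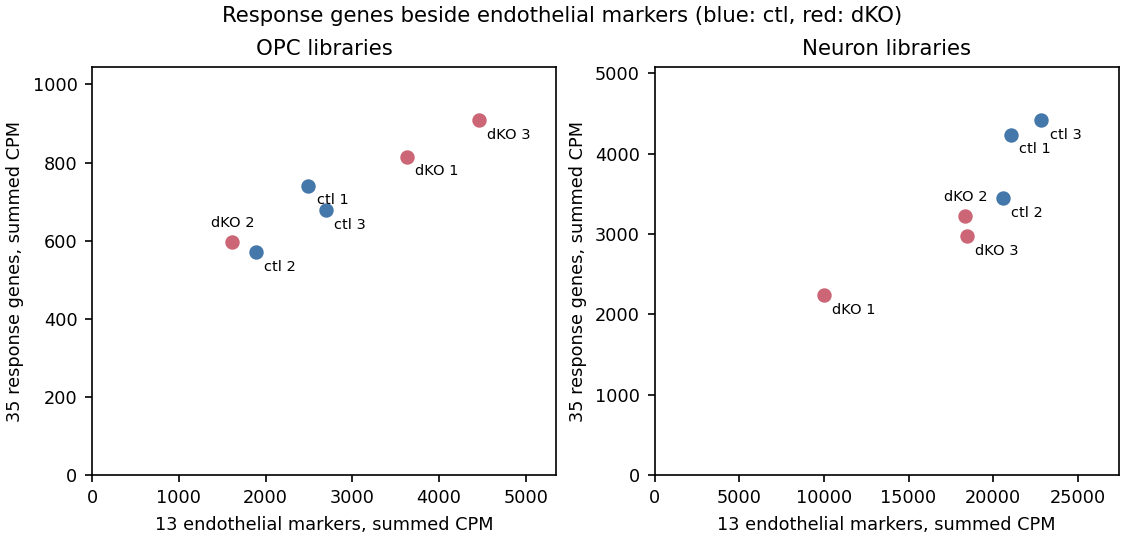
Each point is a library (blue ctl, red dKO), with the summed CPM of 13 endothelial markers on the horizontal axis and the summed CPM of the 35 response genes on the vertical axis, for OPCs and neurons. In neurons dKO 1 is lowest on both axes, and in OPCs dKO 3 is highest on both.

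In the OPC libraries the response genes had higher means in dKO, but few differed beyond the spread between libraries. The log2 fold change was above 0 for 31 of the 35 genes, against 50.8% of all genes tested, with a median of 0.27, against 0.01 over all genes. At an unadjusted p under 0.05 with edgeR 4 of the 35 genes were higher (Ifit3, Ifit3b, Irf1 and Oas1a), against 6.27% of all genes, and 0 were lower, against 5.27%. An adjusted p under 0.05 over all genes was reached by 0 of the 35 genes with edgeR, against 1 of 17364 genes or 0.00576%, where 2003 had an unadjusted p under 0.05. With DESeq2 it was also 0, against 1.07% of all genes higher and 0.616% lower. The groups did not overlap for 3 genes, all higher in dKO, against 8.59% of all genes, and none was lower, against 7.82%. The share without overlap was close to that of all genes tested.

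Ifit3 counted 172, 159.6 and 144 in ctl and 284, 206 and 288 in dKO libraries in OPCs, and each dKO library lay above each ctl library. The dKO level fitted by edgeR was 1.60-fold that of ctl (log2 fold change 0.68 ± 0.18, unadjusted p 0.0055, adjusted p 0.296 with edgeR). Ifit3b counted 56.4, 61.9 and 44.9 in ctl and 83.6, 128 and 96.3 in dKO libraries, likewise without overlap and with dKO 2 highest (0.90 ± 0.27). Both kept an unadjusted p under 0.05 whichever library was left out, against 2.17% of all genes. Of the other IFIT genes, Ifit1 stood at 0.27 ± 0.39 and Ifit2 at -0.05 ± 0.18, both with overlapping groups.

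Irf1 counted 584, 506 and 621 in ctl and 752, 671 and 956 in dKO libraries in OPCs and was the third gene without overlap (0.45 ± 0.15). Its unadjusted p stayed under 0.05 when 4 of the 6 libraries were left out in turn, and it stood at 0.28 without dKO 3. Oas1a counted 29.1, 48.8 and 39.7 in ctl and 77.7, 46.1 and 102 in dKO libraries, with dKO 2 inside the ctl range (0.92 ± 0.36), and kept an unadjusted p under 0.05 when 2 of the 6 were left out in turn.

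The other regulators overlapped between ctl and dKO OPCs. Ifnar1 counted 1467, 1329 and 1308 in ctl and 1292, 1238 and 1627 in dKO libraries (-0.01 ± 0.13), and Ifnar2 518, 523 and 528 in ctl and 594, 433 and 698 in dKO libraries (0.11 ± 0.17). The Ifnar1 difference was close to 0, and dKO 3 was the highest library for both chains. Stat2 counted 649.6, 544 and 637 in ctl and 525, 469 and 788 in dKO libraries (-0.07 ± 0.19), and Irf9 444, 328 and 435 in ctl and 484, 388 and 629.7 in dKO libraries (0.29 ± 0.20). Both were again highest in dKO 3. Irf7 counted 182, 112 and 208 in ctl and 222, 143 and 289 in dKO libraries (0.35 ± 0.30), and Usp18 56.4, 70.3 and 78.4 in ctl and 118, 56.1 and 133 in dKO libraries (0.56 ± 0.34). Without dKO 3 Irf9, Irf7 and Usp18 stood at 0.08, 0.09 and 0.32. In Irf7 and Usp18 dKO 1 and dKO 3 lay above the ctl range and dKO 2 within or below it. The median log2 fold change was 0.29 over the 7 regulators and 0.25 over the other 28 genes, and no test of that difference was run.

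The most abundant effectors per length did not separate the groups in OPCs either. Ifi27 counted 2254, 1671 and 2023 in ctl and 2233, 1991 and 2181 in dKO libraries (0.08 ± 0.13). Lgals3bp counted 1668, 861 and 1102 in ctl and 1116, 1281 and 1579.6 in dKO libraries (0.10 ± 0.24), and Bst2 450.4, 238 and 300.0 in ctl and 383, 304 and 418 in dKO libraries (0.13 ± 0.24). In all 3 genes ctl 2 was the lowest library. Sensors stood between 0.16 and 0.29 on the log2 scale (Ifih1, Dhx58 and Zbp1), the enzymes Trim25, Dtx3l, Parp9 and Parp14 between 0.29 and 0.43, and Oas2 and Oasl2 at -0.07 ± 0.34 and 0.12 ± 0.43. The remaining effectors (Isg15, Isg20, Rsad2, Eif2ak2, Samd9l, Rtp4, Xaf1, Ifi35, Ifi44, Phf11d and Sp100) ranged from 0.00 for Isg20 to 0.55 for Samd9l, all with overlapping groups. Xaf1 was set by library dKO 1, with 588, 709.9 and 572 in ctl and 1702, 391 and 394 in dKO libraries. Its log2 fold change was 0.38 ± 0.51 with all libraries and -0.68 without dKO 1.

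**Figure D4:**
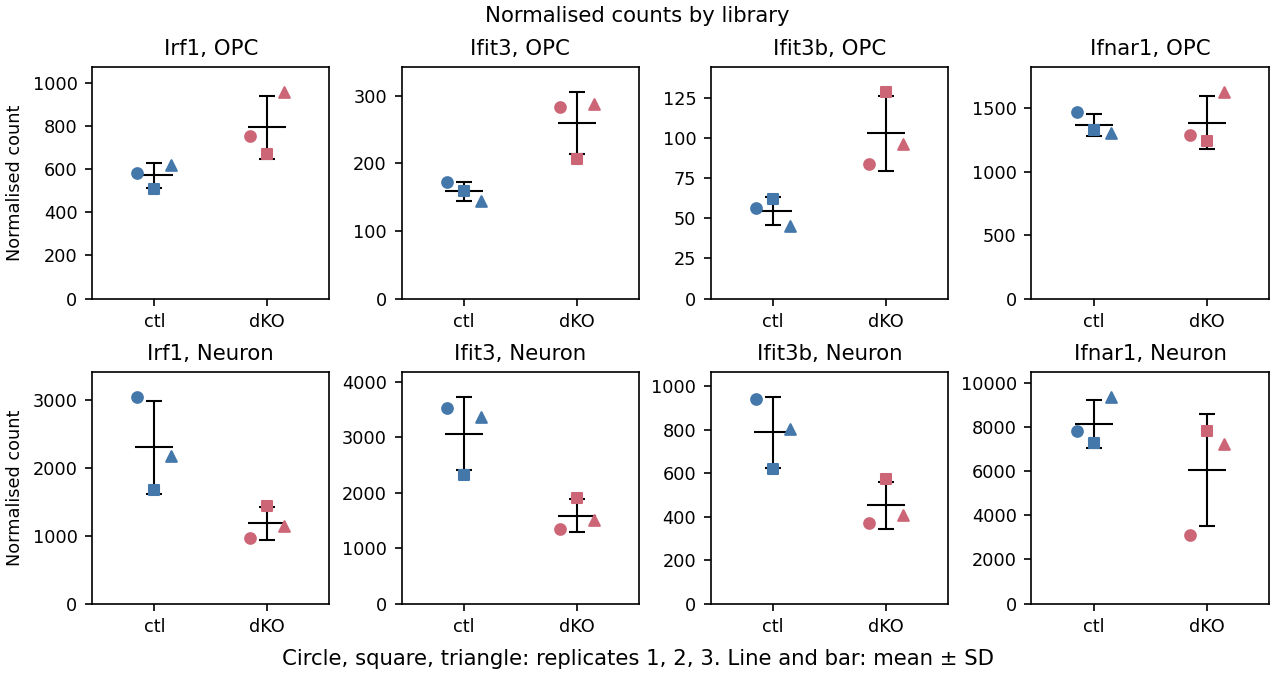
Normalised counts (vertical axis, from 0) of Irf1, Ifit3, Ifit3b and Ifnar1 in ctl and dKO libraries of OPCs (top) and neurons (bottom), with the mean and SD over 3 libraries. Irf1, Ifit3 and Ifit3b do not overlap between the groups in either cell type and lie in opposite directions, and Ifnar1 overlaps in both.

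The higher OPC means depended on library dKO 3, which was the highest of the 6 libraries for 28 of the 35 genes, while ctl 2 and dKO 2 were the lowest for 15 each. Without dKO 3 the median log2 fold change was -0.01, with 17 genes above and 18 below 0, and 2 genes were higher at an unadjusted p under 0.05, against 6.15% of all genes. Without dKO 2, the library that stood apart in Xist, the median was 0.49 and 13 genes were higher, against 8.08% of all genes. Microglial markers summed to 349.7, 361 and 407 CPM in ctl and 951, 424 and 1225 CPM in dKO OPC libraries, and 14 of 15 were higher at an unadjusted p under 0.05 with a median log2 fold change of 1.32. Endothelial markers summed to 2493, 1891 and 2694 CPM in ctl and 3632, 1611 and 4459.9 CPM in dKO, with 13 of 13 means higher, 1 at an unadjusted p under 0.05 and a median of 0.34. Without dKO 2 there were 11 such markers with a median of 0.68, and without dKO 3 there were 0 with a median of 0.03. Response genes divided by microglial markers gave ratios of 2.12, 1.58 and 1.66 in ctl and 0.857, 1.41 and 0.741 in dKO, so the response genes differed less than the microglial markers. Divided by endothelial markers the ratios were 0.297, 0.301 and 0.252 in ctl and 0.224, 0.371 and 0.204 in dKO, which overlapped. Astrocyte markers had higher means in 8 of 8, with 6 at an unadjusted p under 0.05 and a median of 0.93 (0.48 and 4 without dKO 2), and oligodendrocyte markers had lower means in 7 of 9, with 2 at an unadjusted p under 0.05 and a median of -0.42 (-0.26 and 0 without ctl 2, -0.57 and 4 without dKO 1). Mural markers summed to 860.0, 695 and 997 CPM in ctl and 1292, 616 and 1299 CPM in dKO, with 6 of 7 means higher and 0 at an unadjusted p under 0.05. Means were also higher for 9 of 10 neuron markers, 2 at an unadjusted p under 0.05, for 5 of 5 fibroblast markers, 0 at that threshold, for 4 of 5 erythroid markers, 2 at it, and for 6 of 9 OPC markers, 1 at it. The 1 blood leukocyte marker tested was higher without overlap, at 1.27 on the log2 scale. The part of these cells in the OPC result was not tested.

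Set side by side, 29 of the 35 genes had a mean above ctl in dKO OPC libraries and below ctl in dKO neuron libraries. The share over 13398 genes tested in both was 27.5%. Without OPC library dKO 3 the count was 16 of the 35, against 24.7% of genes. Without each other library of either cell type it was 26 to 33, against 26.3% to 28.5%. The cell types came from separate tables, and the difference between them was not tested. For Irf1 the log2 fold changes were 0.45 in OPCs and -0.96 in neurons, for Ifit3 0.68 and -0.95, and for Ifit3b 0.90 and -0.80. Of the genes with a promoter window, 7 of 10 with a response element core and 12 of 17 without that core were lower in neurons at an unadjusted p under 0.05, against 4.04% of all genes, with median log2 fold changes of -0.60 and -0.57. In OPCs 3 of the 10 and 1 of the 17 were higher, against 6.27% of all genes, with medians of 0.28 in each set. Some of the 17 hold a gamma-activated core, as Irf1 does, and the difference between the sets was not tested.

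Of 18 listed type I interferon genes 2 had a row in each table, with a summed count of 1 to 6 per OPC library and 0 or 1 per neuron library, so none reached the filter. Interferon gamma (Ifng), which signals through its own receptor, was measured in neuron libraries at 443, 55.6 and 206 in ctl and 109.6, 28.3 and 16.5 in dKO libraries. Its ctl 1 value was the highest and its groups overlapped (-2.17 ± 0.84, unadjusted p 0.031).

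Beyond the 35 genes, 31 other signalling genes and 44 other interferon-stimulated genes were tested in neurons. Of the signalling genes 3 were lower at an unadjusted p under 0.05 and 0 higher, and of the stimulated genes 20 were lower and 1 higher, against 4.04% of all genes lower and 4.96% higher. Among those with the smallest p were Gbp3, a guanylate-binding protein, and Tap1, Psmb8 and Psmb9, parts of the antigen-processing machinery. Gbp3 counted 9525, 4278 and 6660.0 in ctl and 1918, 3401 and 2846 in dKO libraries (-1.32 ± 0.31), and Tap1 2618, 687 and 1285 in ctl and 425, 523 and 439.8 in dKO libraries (-1.72 ± 0.42). In these 4 genes the groups did not overlap, and ctl 1 was the highest library. Psmb8 counted 3785, 1330.3 and 2169.7 in ctl and 1012, 999 and 752 in dKO libraries (-1.39 ± 0.34) and Psmb9 1862, 603 and 862 in ctl and 472, 395 and 319 in dKO libraries (-1.48 ± 0.39).

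In OPCs 33 other signalling genes and 41 other stimulated genes were tested. Of these 8 and 4 were higher at an unadjusted p under 0.05, and 0 were lower in either list, against 6.27% of all genes higher and 5.27% lower. The 5 with the smallest p were Irf4, Irf8 and Tlr7, known from microglia and other myeloid cells, and the Schlafen genes Slfn2 and Slfn8. Irf8 counted 79.5, 64.3 and 85.7 in ctl and 228, 78.7 and 280.2 in dKO libraries (1.32 ± 0.42) and Tlr7 31.6, 35.7 and 65.9 in ctl and 180.2, 44.3 and 279 in dKO libraries (1.89 ± 0.60). In both genes dKO 2 stood near ctl, as it did in the microglial sums. Irf4 counted 8.55, 8.34 and 5.23 in ctl and 26.9, 19.9 and 53.0 in dKO libraries (2.12 ± 0.51), Slfn2 29.1, 20.2 and 25.1 in ctl and 90.6, 32.6 and 97.4 in dKO libraries (1.52 ± 0.44) and Slfn8 17.1, 22.6 and 16.7 in ctl and 43.8, 26.2 and 61.7 in dKO libraries (1.19 ± 0.40). These 3 genes did not overlap between the groups.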

How the data were processed

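Poly(A) RNA of sorted cortical cells was sequenced as 150-base pairs. The OPC table deposited by the authors holds raw counts of reads for each Ensembl gene, with FPKM values that scale them by length and depth. Their methods name HISAT2, GRCm38 and featureCounts, while the submitters' processing notes list mm39. The neuron table deposited by the authors holds estimated counts and TPM values for RefSeq transcripts, made by a tool not given in the sources used here. The estimated counts were summed per gene, rounded, and matched to symbols through RefSeq (17794 of 17918 genes). FPKM and TPM were used for levels only. Another 18 per-sample columns of normalised or FPKM values were not used, and neither were the authors' fold changes and p-values.

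Each cell type was fitted separately. The test of dKO against ctl covered genes whose mean normalised count reached 10 and used edgeR 4.0.16 (R 4.3.3) with TMM, the quasi-likelihood test and Benjamini-Hochberg adjustment over all genes. SE is the log2 fold change over the square root of F. No genes were adjusted over the list alone. DESeq2 1.42.0, other scaling and filters, bias-adjusted deviances, a replicate block and each library left out were alternatives. On simulated data with a log2 change of 2, edgeR called 191 of 192 changed genes for OPCs (17341 genes tested). For neurons it called 195 of 197 (14338 tested). It also called 5 unchanged genes for OPCs and 13 for neurons. Recovery of smaller differences, such as those of most response genes, was not tested. Replicates differed by more than sampling noise (chi-square per gene at least 15.7). With 3 libraries against 3, the p-values measure the spread between pools of mice. An exact permutation test of single values cannot go below 0.1 and was not used.

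The gene list, its roles, the marker lists and the tests were chosen with earlier results of these data known. All 35 genes are named. Values by library are given for the 7 regulators, for genes with an unadjusted p under 0.05 and for the 3 next most abundant genes per length, and of the other pathway genes the 5 with the smallest p were chosen, 1 of which is not reported here. The ratios to marker sums and the fits without both ctl 1 and dKO 1, or with DESeq2 without each library, were added after the data were seen. Promoters were read from RefSeq (GRCm38.p6) and transcripts from GENCODE M21.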

Additional observations from a re-analysis of the deposited data

Results flagged for a closer look

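Irf1, Ifit3 and Ifit3b stood out because their dKO libraries all lay above the ctl libraries in OPCs and all below them in neurons, against 0.858% of 13398 genes tested in both. The log2 fold changes were 0.45 and -0.96 for Irf1, 0.68 and -0.95 for Ifit3, and 0.90 and -0.80 for Ifit3b, in OPCs and neurons. In OPCs Irf1 stood at 0.28 without dKO 3 and kept an unadjusted p under 0.05 in 4 of the 6 fits that left out a library. The difference between the cell types was not tested, since the tables were counted in different ways. The Ifit3 and Ifit3b values may not be independent, as they share 296 windows of 150 bases, of 1596 in Ifit3 and 1851 in Ifit3b.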

How the results depend on the processing

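In neurons the count of response genes lower at an unadjusted p under 0.05 was 22 with edgeR, 24 with DESeq2, against 4.91% of all genes, and 13 to 24 without each library in turn, against 2.14% to 5.02%. At an adjusted p under 0.05 it was 0 with edgeR and 6 with DESeq2, and leaving out libraries with DESeq2 gave 0 without ctl 1, ctl 3 or dKO 3, 5 without dKO 1, 7 without ctl 2 and 8 without dKO 2. In OPCs 4 genes were higher and 0 lower. Without each library in turn 2 to 13 were higher, against 3.61% to 8.08% of all genes. In those fits 0 to 1 were lower, with the 1 seen without dKO 1 or dKO 3. In OPCs 0 to 1 genes passed adjustment. The 1 was higher with DESeq2 without dKO 2, where 2.77% of all genes passed as higher. The OPC median ran from -0.0051 to 0.49 (outside the regulators from -0.0065 to 0.50) without each library. The replicate block gave 6 genes higher in OPCs, against 7.07% of all genes, and 20 lower in neurons, against 4.12%, with a median of 0.17 and -0.60. Same-numbered libraries did not deviate together in every pair (correlations -0.11, 0.15 and 0.11 in OPCs and 0.17, -0.08 and -0.08 in neurons), and the best match had the same number for OPC replicates 2 and 3 and neuron replicate 1, so the numbers were not taken to pair the samples. Other changes of direction concerned differences near 0: in OPCs Isg20 with DESeq2 (-0.0020), other size factors (-0.0022) and the block (-0.018), Ifnar1 without a filter (0.018) and Oasl2 with the block (-0.060), and in neurons Isg20 with the block (-0.021).

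Log2 fold changes that crossed 0 when libraries were left out ran, in OPCs, over Ifnar1 -0.15 to 0.061, Ifnar2 -0.061 to 0.27, Stat2 -0.33 to 0.071, Dhx58 -0.19 to 0.52, Zbp1 -0.53 to 0.49, Dtx3l -0.0080 to 0.60, Parp14 -0.0051 to 0.74, Ifit2 -0.19 to 0.085, Oas2 -0.30 to 0.16, Oasl2 -0.42 to 0.50, Isg15 -0.056 to 0.46, Isg20 -0.17 to 0.25, Rsad2 -0.17 to 0.42, Bst2 -0.064 to 0.44, Rtp4 -0.18 to 0.45, Xaf1 -0.68 to 0.72, Ifi27 -0.034 to 0.20, Ifi35 -0.042 to 0.71, Phf11d -0.18 to 0.49, Lgals3bp -0.10 to 0.42 and Sp100 -0.17 to 0.52, and in neurons, with ctl 1 and dKO 1 also left out together, over Isg20 -0.67 to 0.37, Ifi27 -0.15 to 0.24 and Lgals3bp -0.25 to 0.047. The cause was not tested. DESeq2, other size factors and other filters moved no median by as much as 0.1. With 3 libraries a group, unadjusted calls are sensitive to each library, and absence of a call does not show absence of a difference.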
